A study of Mus musculus with 12 samples.

Results

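The TGF-β and BMP pathway genes were taken by name, as 42 genes for ligands, latency proteins, receptors, Smads, repressors and targets. Of these, 41 were listed among the 16969 distinct symbols of the deposited table, and *Inhbe* was not analysed here. The summed normalized counts reached 10 in 37 of the 41, which are the members described below, as in 12889 genes of all. *Smad9*, *Acvr2b*, *Inhba* and *Inhbc* stayed under that sum.

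GFP(+) cells were sorted from livers of Prom1CreERT2-nLacZ/+;Rosa26Lsl-GFP/+ mice (C57BL/6 in the labels, with the *Prom1* allele on C57BL/6N and the *Rosa26* allele on C57BL/6J in the methods), in which tamoxifen switches on GFP for good in cells that use the *Prom1* promoter and in all their progeny. Every group carried both alleles, including 1 *Prom1* copy with the Cre insert, and received tamoxifen at 6 weeks of age, 7 days before the operation. The groups were day 0, which the labels call sham and the paper places ahead of BDL, so that an operation in this group is not established, and BDL day 3 and BDL day 14, counted from bile duct ligation (BDL), an operation that obstructs bile flow. The labels describe 3, 3 and 6 libraries, and the authors' means rest on 3, 3 and 4, with males and females mixed in unequal numbers (1 and 2 at day 0, 2 and 1 at BDL day 3, 3 and 1 at BDL day 14).

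TGF-β is made as a latent dimer that LTBP proteins tether to the matrix, and once freed it joins a type II and a type I receptor that phosphorylate Smad2 and Smad3. BMPs use other receptors and Smad1, Smad5 and Smad9, and both branches share Smad4. In liver, TGF-β is best known for turning stellate cells and portal fibroblasts into matrix-producing myofibroblasts, and BMPs from sinusoidal endothelial cells control hepatic iron sensing.

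The sort holds RNA of several cell types, which bears on every member. *Prom1* itself had mean normalized counts of 6.66, 0.956 and 1.76. Here and below, 3 means in a row are those of day 0, BDL day 3 and BDL day 14. The 14 cholangiocyte markers summed to 705, 429 and 1100, and without *Spp1*, which macrophages also make, to 246, 254 and 308. The 10 general macrophage markers summed to far more, 11600, 21900 and 20800. A further 5 Kupffer cell markers summed to 9210, 20900 and 1280, whereas 7 markers of recruited macrophages summed to 129, 598 and 3390. The 15 mesenchymal markers summed to 1690, 40.2 and 187, with *Lum* and *Dpt* at the floor at BDL day 3 and *Lrat* at BDL day 14. The 10 sinusoidal endothelial markers summed to 1280, 653 and 1610 and the 10 hepatocyte markers to 3610, 1020 and 426. The labels name hepatic progenitor cells (HPC) and their progeny, whereas the summed macrophage markers stood above those of cholangiocytes in each group. The part of these cells in the results below was not tested, and fewer cells of a type cannot be told apart from less RNA per cell.

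The table gives, for each gene, the authors' mean of each group, the arithmetic and the geometric mean over 10 libraries, and the top normalized count among them, with no value for a single named library. The depth per library is therefore unknown, no SD per group was available, and no test is given here. A pooled SD of log2 values within groups was worked out from the geometric mean, assuming 1 spread for the 3 groups, and gave the standard error (SE) beside each log2 ratio. This SD had a median of 0.682 over the members, from 0.283 to 2.10, against 0.576 over all genes kept. A member is described as past 1.5-fold, the study's own minimum, and, more strictly, as past 1.5-fold and 2 SE. The lowest and highest libraries that the means and the top count permit gave a further reading, in which 2 groups cannot overlap. Means up to 4 times the lowest of their group (0.512, 0.292 and 0.244) were read as the floor, and a fold against them as a bound.

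The promoter ends below are shown for the type I and type II TGF-β receptors *Tgfbr1* and *Tgfbr2*, for the TGF-β target *Tgfbi*, and for *Bmp4*, the member whose day 0 libraries overlapped neither BDL group. They are bases before the RefSeq start sites (GRCm38.p6), 5′ to 3′ on the gene's strand, and capitals mark the Smad box CAGAC, or GTCTG for its other strand, and the GC-rich Smad element GGCGCC, which is its own reverse complement. The 2 motifs share no bases in these windows. For *Tgfbi*, only the 187 bases outside the gene model of the table are shown.
Tgfbr1 (chr4:47352972-47353221, + strand): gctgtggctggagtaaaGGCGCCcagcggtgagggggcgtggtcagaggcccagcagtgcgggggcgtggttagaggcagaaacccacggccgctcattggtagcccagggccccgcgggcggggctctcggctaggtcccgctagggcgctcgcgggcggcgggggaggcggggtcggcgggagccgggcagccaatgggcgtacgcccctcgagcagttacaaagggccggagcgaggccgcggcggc
Tgfbr2 (chr9:116175364-116175613, - strand): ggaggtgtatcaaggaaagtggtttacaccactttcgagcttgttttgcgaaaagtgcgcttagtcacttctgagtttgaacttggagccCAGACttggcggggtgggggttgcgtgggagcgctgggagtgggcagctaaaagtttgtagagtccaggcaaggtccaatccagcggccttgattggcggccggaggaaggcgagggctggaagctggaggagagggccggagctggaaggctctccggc
Tgfbi (chr13:56609336-56609522, + strand): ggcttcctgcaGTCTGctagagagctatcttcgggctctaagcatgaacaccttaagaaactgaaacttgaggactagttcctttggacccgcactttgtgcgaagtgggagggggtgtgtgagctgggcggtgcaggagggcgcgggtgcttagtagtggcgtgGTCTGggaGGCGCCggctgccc
Bmp4 (chr14:46390670-46390919, - strand): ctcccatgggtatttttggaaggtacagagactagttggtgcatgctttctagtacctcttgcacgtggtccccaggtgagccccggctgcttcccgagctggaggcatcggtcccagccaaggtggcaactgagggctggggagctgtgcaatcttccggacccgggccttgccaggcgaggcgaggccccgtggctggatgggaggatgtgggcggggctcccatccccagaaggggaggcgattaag
*Tgfbi* held 2 Smad boxes and 1 GC-rich element, *Tgfbr1* 1 GC-rich element, *Tgfbr2* 1 Smad box and *Bmp4* neither. Over all 32851 RefSeq promoter windows, counting only the bases before the start site, 42.2% held a Smad box and 9.59% a GC-rich element. Of the 27 members with a promoter in that set, 12 (44.4%) held a Smad box and 6 (22.2%) the GC-rich element. These matches describe letters and do not show binding.

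Across the members, the levels ran over a wide range. Per kilobase of exon, on the mean of normalized counts over all libraries, *Tgfbi* stood first with 159, followed by *Id3* with 117, *Id2* with 76.7, *Id1* with 59.3 and *Eng* with 30.4. *Tgfb1* was the leading TGF-β ligand with 18.5 per kilobase, against 2.70 for *Tgfb3* and 0.173 for *Tgfb2*. Among the type I and type II receptors, the highest levels per kilobase were those of *Acvrl1* (14.7) and *Tgfbr2* (8.99) at day 0, and of *Tgfbr2* (17.1) and *Tgfbr1* (13.7) at BDL day 14. The order of the members changed with time, as *Id3* led at day 0 with 160 per kilobase and *Tgfbi* at BDL day 14 with 310.

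**Figure D1:**
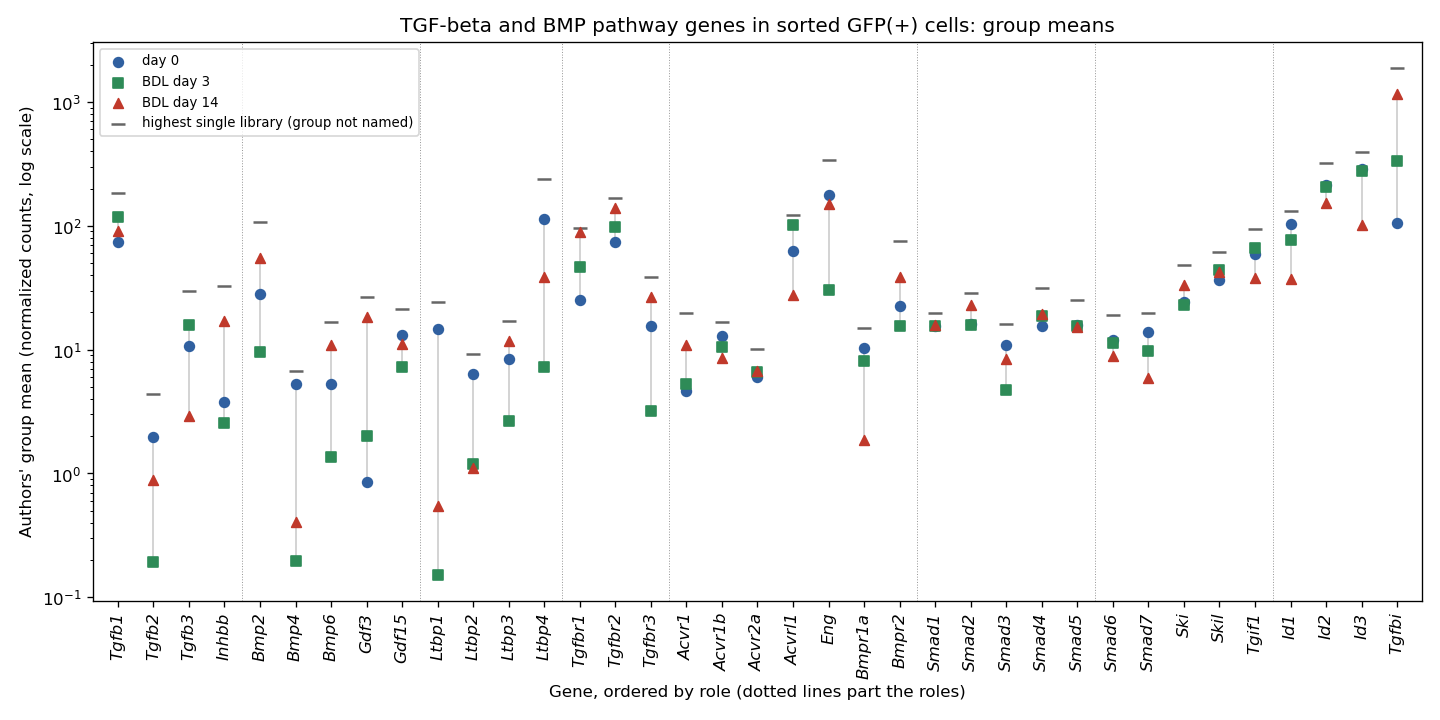
The authors' mean of normalized counts (log axis) at day 0 (circles), BDL day 3 (squares) and BDL day 14 (triangles) for each of the 37 members in order of role, with a dash for the highest single library. The means of *Tgfbi* run from 105 at day 0 to 1170 at BDL day 14, whereas the 3 means of *Smad1* lie between 15.4 and 15.7.

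At BDL day 3, members lower past 1.5-fold outnumbered those higher, as was so among all genes kept on the listed means. Of the 37 members, 12 (32.4%) were lower than at day 0 past 1.5-fold, against 29.2% of all genes kept, and 5 (13.5%) were higher, against 19.2%. Past 1.5-fold and 2 SE, 8 (21.6%) were lower, against 15% of all genes, and 3 (8.11%) were higher, against 11.4%. Only *Bmp4* was lower with groups that cannot overlap, which held for 1.68% of all genes, and 0 members were higher in this way, against 0.116%. The median log2 ratio was -0.09 over the members and -0.02 over all genes.

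At BDL day 14 against day 0, the members spread in both directions. Past 1.5-fold, 10 (27%) were higher, against 21.2% of all genes kept, and 13 (35.1%) were lower, against 28.8%. With 2 SE added, 4 (10.8%) were higher, against 13.2%, and 9 (24.3%) were lower, against 16.8%. Groups could not overlap for *Bmp4* alone among the lower members, against 1.44% of all genes, and for 0 of the higher ones, against 0.0931%. The median log2 ratio was -0.05, close to the -0.04 of all genes.

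Between BDL day 3 and BDL day 14, the members were mainly higher at the later time. Past 1.5-fold, 17 (45.9%) were higher, against 21.2% of all genes kept, and 7 (18.9%) were lower, against 19.7%. With 2 SE added, 11 (29.7%) were higher, against 11.3%, and 6 (16.2%) were lower, against 10.6%. No pair of groups was held apart by the bounds in either direction, against 0.116% of all genes for higher and 0.419% for lower. The median log2 ratio of the members was 0.53, against -0.00 over all genes. BDL day 3 was the lowest of the 3 groups for 15 of 37 members (40.5%), against 30.8% of all genes, and the highest for 5 (13.5%), against 30.0%. These shares are descriptions, since the genes of a pathway are not independent.

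**Figure D2:**
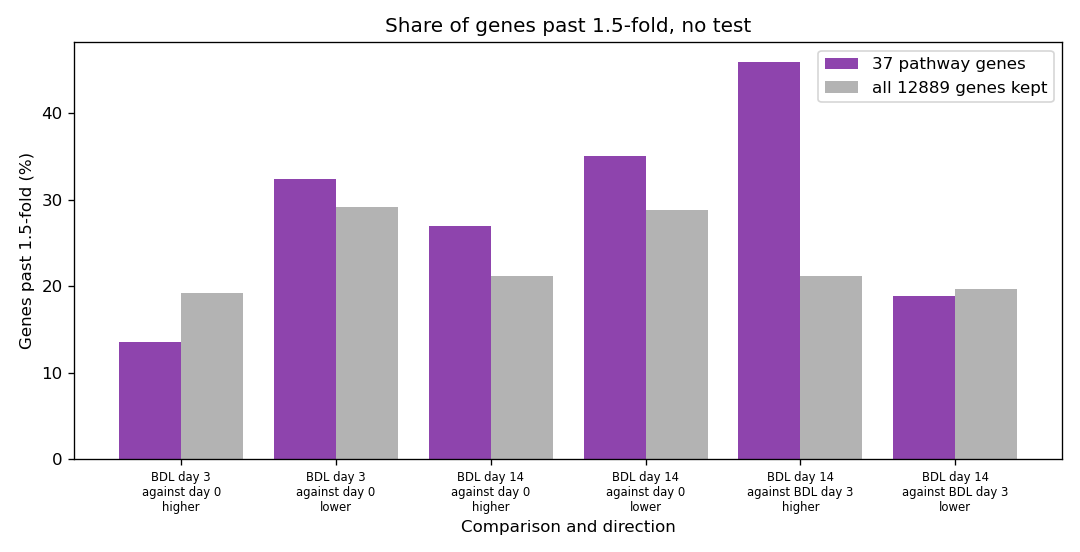
Percent of genes past 1.5-fold in each comparison and direction, for the 37 members (purple bars) and for all 12889 genes kept (grey bars). The widest gap is among genes higher at BDL day 14 than at BDL day 3, 45.9% against 21.2%.

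Among the TGF-β ligands, *Tgfb1* was abundant throughout and its isoforms were scarce. *Tgfb1*, the main isoform of macrophages and other immune cells, had mean normalized counts of 73.4, 117 and 90.2, and no library exceeded 184. Its log2 ratio of 0.67 ± 0.70 (SE) at BDL day 3 was past 1.5-fold but within 1 SE of no difference, and 0.425 under quantile normalization. *Tgfb3*, the isoform of mesenchymal and some other cells, had means of 10.7, 15.9 and 2.93. It was lower at BDL day 14 than at day 0 by 1.87 ± 0.51 on the log2 scale, a 3.65-fold difference, and 5.43-fold lower than at BDL day 3. *Tgfb2*, the isoform linked with epithelia and mesenchyme, had means of 1.96, 0.194 and 0.891, of which that of BDL day 3 lay at the floor. That is at least 6.72-fold lower than at day 0, but a single day 0 library of 4.40 carried 74.8% of the day 0 total. Without that library, the ratio at BDL day 14 against day 0 changed sign, from -1.14 to 0.27 on the log2 scale, and the bound at BDL day 3 was at least 2.54-fold lower.

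The activin genes were low. *Inhbb*, which encodes the βB subunit of activin B, had means of 3.75, 2.56 and 17.0, and a BDL day 14 library of 32.9 held 48.4% of its group. Its mean at BDL day 14 was 4.53-fold that of day 0 (log2 2.18 ± 1.19), within 2 SE of no difference, and 6.64-fold that of BDL day 3 (log2 2.73 ± 1.19), which was past 2 SE. Its log2 ratio at BDL day 3 against day 0, -0.55 ± 1.28, became 0.25 under quantile normalization. The remaining subunits were below the sum of 10, with group means of 1.57, 0.410 and 0.288 for *Inhba* and of 0.575, 0.587 and 0.126 for *Inhbc*, the last at the floor.

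The BMP and GDF ligands showed separate patterns. The 5 summed to 52.7, 20.3 and 95.7 normalized counts. At BDL day 3, 4 were lower past 1.5-fold and 1 higher, against 29.2% and 19.2% of all genes kept. *Bmp4*, a ligand of stromal cells, had means of 5.32, 0.196 and 0.408, and the BDL day 3 mean lay at the floor. Against day 0 this is a difference of at least 18.2-fold, and the mean of BDL day 14 was 13-fold lower (log2 -3.71 ± 1.14). Every day 0 library held at least 2.39, no BDL day 3 library more than 0.591 and no BDL day 14 library more than 1.64. *Bmp4* was the 1 member whose day 0 libraries overlapped neither BDL group. The mesenchymal markers were low alongside it, with 15 of 15 lower past 1.5-fold at both times, and their part in its values was not tested. The gene lies on chromosome 14, from 46383520 to 46390669 on the minus strand (mm10).

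*Bmp2* and *Bmp6*, the endothelial ligands that drive hepcidin in hepatocytes, shared a low at BDL day 3. The means of *Bmp2* were 28.1, 9.49 and 54.9, and those of *Bmp6* were 5.24, 1.37 and 11.0. *Bmp2* was 5.79-fold higher at BDL day 14 than at BDL day 3 (log2 2.53 ± 0.73), while its log2 ratios to day 0, -1.57 ± 0.79 and 0.97 ± 0.73, stayed within 2 SE. A BDL day 14 library of 108 held 49.2% of its group for *Bmp2*, and without it the log2 ratio at BDL day 14 against day 0 was 0.405, no longer past 1.5-fold. *Bmp6* had an SE of 1.61 or more in each comparison, and its 8.03-fold difference between the BDL groups was within 2 SE. Over the same groups, 9 of 10 sinusoidal endothelial markers were lower past 1.5-fold at BDL day 3 than at day 0, and 8 of 10 were higher at BDL day 14 than at BDL day 3. The mesenchymal and cholangiocyte sums were also lowest at BDL day 3, and the part of these cells was not tested.

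*Gdf3*, a TGF-β family ligand, had the largest ratio of the members at BDL day 14 among those higher than at day 0. Its means were 0.860, 1.99 and 18.3, so that it was 21.3-fold higher at BDL day 14 (log2 4.41 ± 0.57) and 9.20-fold higher than at BDL day 3 (log2 3.20 ± 0.57). Its log2 ratio at BDL day 14 against day 0 was 3.38 with a pseudocount of 1 and 5.28 under quantile normalization. No day 0 library exceeded 2.59, and the highest BDL day 14 library had 26.8. At BDL day 3 the log2 ratio of 1.21 ± 0.61 was just under 2 SE. *Gdf15*, a distant family member released under cell stress, had means of 13.2, 7.23 and 11.1 and was 1.83-fold lower at BDL day 3 (log2 -0.87 ± 0.51). Recruited macrophage markers were high alongside *Gdf3*, with 6 of 7 higher past 1.5-fold at BDL day 14 than at day 0, and their part was not tested.

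Latency proteins had the lowest median log2 ratio of the roles at BDL day 3, -3.18. The 4 LTBP genes, whose products bind latent TGF-β to fibrillin microfibrils, summed to 143, 11.3 and 51.7 normalized counts. At BDL day 3, 4 of 4 were lower past 1.5-fold, against 29.2% of all genes kept. *Ltbp4* had means of 114, 7.29 and 38.3 and was 15.6-fold lower at BDL day 3 (log2 -3.97 ± 1.08) and 2.98-fold lower at BDL day 14 (log2 -1.57 ± 1.01). A day 0 library of 241 made up 70.5% of its group. Without it, *Ltbp4* was still lower at BDL day 3, with a log2 ratio of -2.79, and at -0.40 no longer past 1.5-fold at BDL day 14. *Ltbp1*, with means of 14.6, 0.150 and 0.544, was at the floor at BDL day 3, at least 50.1-fold lower, and was 26.8-fold lower at BDL day 14 (log2 -4.75 ± 1.08). No BDL day 3 library held more than 0.452 of *Ltbp1* and no BDL day 14 library more than 2.19, whereas the highest day 0 library held 24.1. *Ltbp2* had means of 6.31, 1.20 and 1.10, lower by 2.40 ± 1.08 and 2.52 ± 1.01 on the log2 scale. *Ltbp3* differed from the others, with means of 8.41, 2.66 and 11.8, since its BDL day 14 mean was back above that of day 0 (log2 0.49 ± 0.86). The mesenchymal markers named above were lower at the same times, and their part was not tested.

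*Tgfbr1* and *Tgfbr2* were higher at BDL day 14 past 1.5-fold and 2 SE, and *Tgfbr3* past 1.5-fold alone. *Tgfbr1*, the type I receptor ALK5 (chromosome 4, 47353222 to 47414931, plus strand), had means of 25.4, 46.5 and 89.4. It was 1.83-fold higher at BDL day 3 (log2 0.87 ± 0.23) and 3.52-fold higher at BDL day 14 (log2 1.81 ± 0.22, 8.39 SE), and its pooled SD of 0.283 was the smallest of the members. Every BDL day 14 library held at least 66.4, and no day 0 library more than 76.6, so the bounds permit only a narrow overlap. *Tgfbr2*, the type II receptor (chromosome 9, 116084293 to 116175360, minus strand), had means of 73.6, 98.2 and 140 and was 1.90-fold higher at BDL day 14 (log2 0.93 ± 0.31). At BDL day 3 its log2 ratio of 0.42 ± 0.33 was under 1.5-fold. *Tgfbr3*, the co-receptor betaglycan, had means of 15.4, 3.18 and 26.6. It was 4.84-fold lower at BDL day 3 (log2 -2.28 ± 0.69) and 8.36-fold higher at BDL day 14 than at BDL day 3 (log2 3.06 ± 0.64), and its log2 ratio at BDL day 14 against day 0 was 0.79 ± 0.64. General macrophage markers were higher past 1.5-fold than at day 0 in 9 of 10 cases at BDL day 3 and in 1 of 10 at BDL day 14. Recruited macrophage markers, at sums of 129, 598 and 3390, were higher in 6 of 7 cases at BDL day 14. The part of these cells in the receptor values was not tested.

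**Figure D3:**
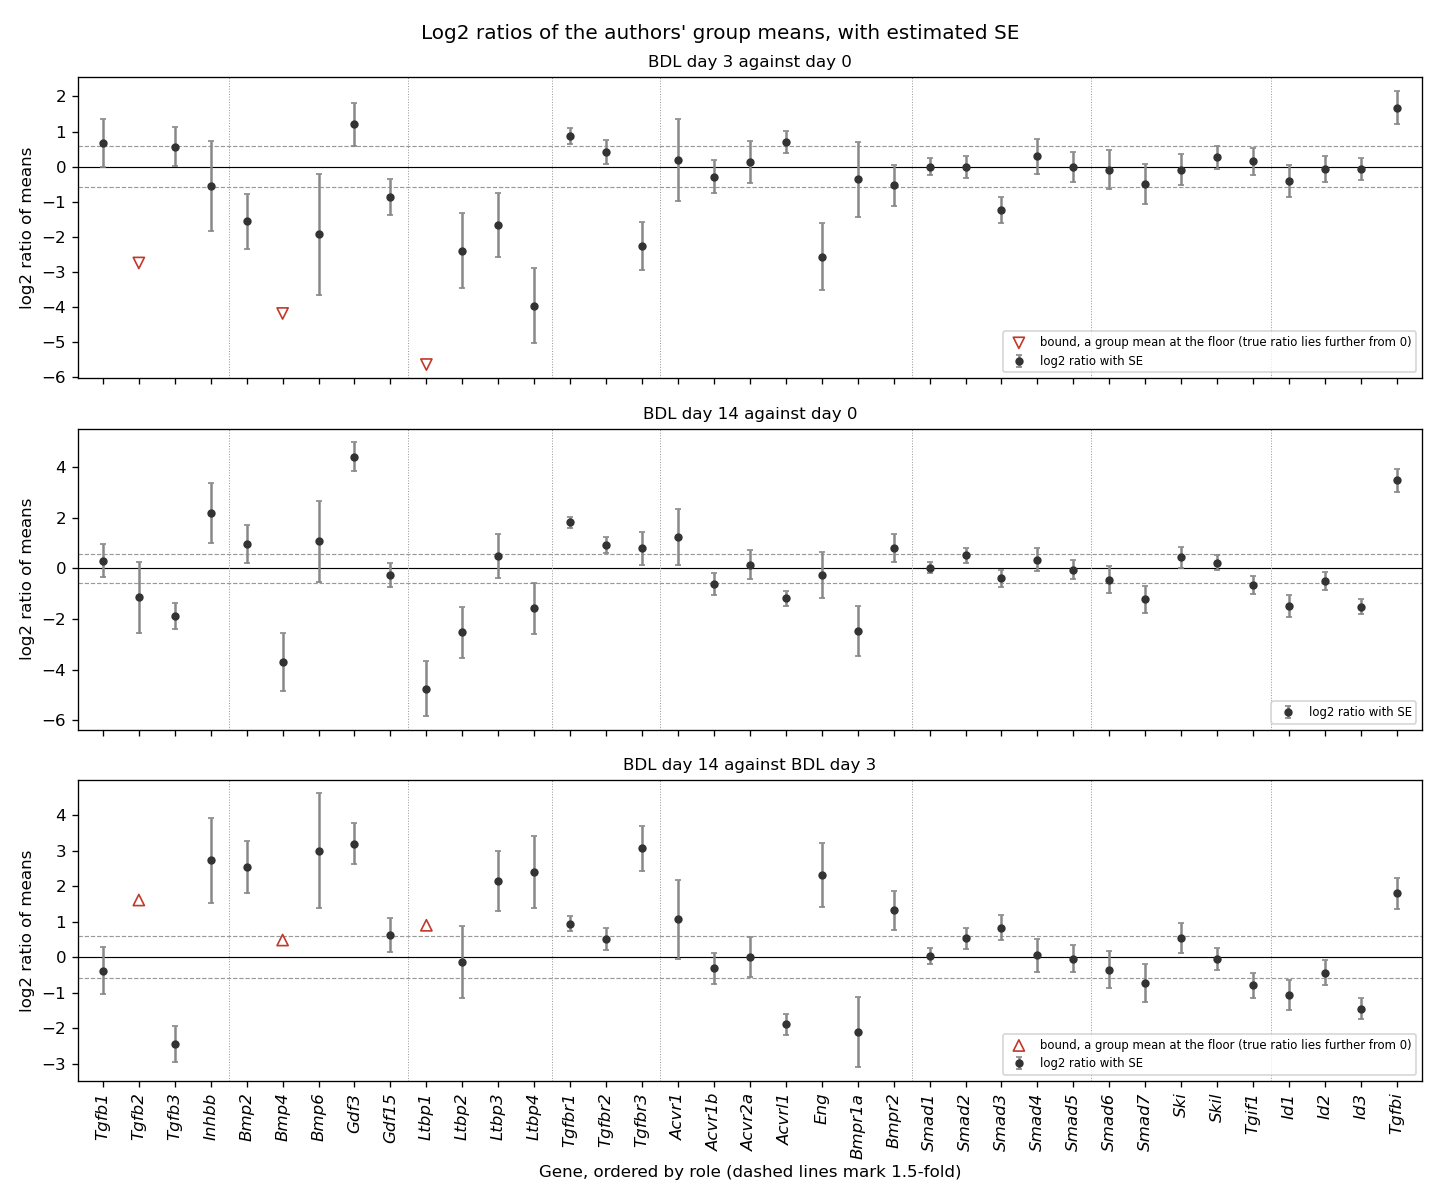
Log2 ratios of the authors' means with estimated SE (bars) for the 37 members, with day 3 over day 0 in the top panel, day 14 over day 0 in the middle and day 14 over day 3 at the bottom. Open triangles are bounds where a mean lay at the floor, and dashed lines mark 1.5-fold. *Tgfbi*, *Tgfbr1* and *Gdf3* lie above 0 in the 3 panels, and *Ltbp1* is the lowest in the top and middle panels, with a log2 ratio of -4.75 ± 1.08 in the middle.

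Among the activin and BMP receptors, *Acvrl1* and *Eng* stood in contrast. *Acvrl1*, the type I receptor ALK1 that binds BMP9 and BMP10, had means of 62.5, 102 and 27.6. It was 1.63-fold higher at BDL day 3 (log2 0.71 ± 0.32, and 0.481 under quantile normalization, no longer past 1.5-fold), 2.26-fold lower at BDL day 14 than at day 0 (log2 -1.18 ± 0.30) and 3.70-fold lower than at BDL day 3 (log2 -1.89 ± 0.30). Every BDL day 3 library of *Acvrl1* held at least 57.2. *Eng*, which encodes endoglin, the co-receptor of ALK1, had means of 179, 30.1 and 150, and its highest library held 340. Unlike *Acvrl1*, it was 5.95-fold lower at BDL day 3 (log2 -2.57 ± 0.96) and 4.98-fold higher at BDL day 14 than at BDL day 3 (log2 2.32 ± 0.90), with no difference past 1.5-fold between BDL day 14 and day 0 (log2 -0.255 ± 0.90). Of the sinusoidal endothelial markers, 9 of 10 were lower past 1.5-fold at BDL day 3, and *Cdh5*, the endothelial cadherin, had means of 207, 299 and 81.5 (log2 0.53 ± 0.71 at BDL day 3). Kupffer cell markers were highest at BDL day 3 and lowest at BDL day 14, as *Acvrl1* was. The part of either cell type was not tested.

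The remaining receptors differed less relative to their spread. *Bmpr1a*, the type I BMP receptor ALK3, had means of 10.4, 8.08 and 1.88 and was 5.53-fold lower at BDL day 14 (log2 -2.47 ± 0.99). *Bmpr2*, the type II BMP receptor, had means of 22.5, 15.6 and 38.9 and was 2.49-fold higher at BDL day 14 than at BDL day 3 (log2 1.32 ± 0.55), past 2 SE. A BDL day 14 library of 75.6 held 48.6% of that group, and without it *Bmpr2* was no longer past 1.5-fold against day 0 (log2 0.245). *Acvr1*, the type I receptor ALK2, had means of 4.64, 5.26 and 11.0, a 2.37-fold difference at BDL day 14 that was within 2 SE (log2 1.25 ± 1.10). *Acvr1b*, the activin receptor ALK4, was just past 1.5-fold lower at BDL day 14, with means of 12.9, 10.6 and 8.52 (log2 -0.60 ± 0.43), and the type II activin receptor gene *Acvr2a* had means of 6.03, 6.61 and 6.69. *Acvr2b*, its paralog, was below the sum of 10, with means of 0.910, 0.412 and 1.01.

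The Smads, which carry the signal to the nucleus, mostly stayed within 1.5-fold. Of the 5 receptor-activated and common Smads kept, *Smad1* had means of 15.4, 15.4 and 15.7 and *Smad5* of 15.7, 15.6 and 15.2, with log2 ratios between -0.05 and 0.03. *Smad4*, the common partner, had means of 15.4, 18.8 and 19.5, and *Smad2* of 16.0, 15.9 and 23.0. *Smad3*, the TGF-β branch Smad that binds DNA directly, was the exception. Its means were 11.0, 4.69 and 8.35, 2.34-fold lower at BDL day 3 (log2 -1.23 ± 0.37) and 1.78-fold higher at BDL day 14 than at BDL day 3 (log2 0.83 ± 0.35). *Smad9* had means of only 0.784, 0.527 and 0.300.

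Of the 5 inhibitory Smads and repressors, 0 were higher past 1.5-fold in any comparison, and 2 were lower at BDL day 14 than at day 0. Of all genes kept, 19.2%, 21.2% and 21.2% were higher in the 3 comparisons, and 28.8% were lower at BDL day 14 than at day 0. *Smad7*, the inhibitory Smad that TGF-β induces against its own receptor, had means of 13.8, 9.80 and 5.93, 2.33-fold lower at BDL day 14 than at day 0 (log2 -1.22 ± 0.53). *Smad6*, which acts mainly on the BMP branch, had means of 12.0, 11.3 and 8.83, within 1.5-fold. The co-repressors *Ski* (24.4, 22.9 and 33.3) and *Skil* (36.4, 43.8 and 42.7) also stayed within 1.5-fold. *Tgif1*, a homeodomain repressor of Smad2 and Smad3, had means of 59.4, 65.8 and 37.9 and was 1.74-fold lower at BDL day 14 than at BDL day 3 (log2 -0.80 ± 0.35). In all, 9 members were within 1.5-fold in the 3 comparisons, *Smad1*, *Smad2*, *Smad4*, *Smad5*, *Smad6*, *Acvr2a*, *Ski*, *Skil* and *Id2*, with log2 ratios from -0.50 to 0.54. That is 24.3% of the members, against 30.6% of all genes kept. Under quantile normalization, *Acvr2a* (log2 0.589 at BDL day 3) and *Id2* (log2 -0.665 at BDL day 14) passed 1.5-fold. A ratio within 1.5-fold does not show that a gene was the same in the groups.

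Of the 4 target genes among the members, *Tgfbi* was higher at BDL day 14, and *Id1* and *Id3* were lower. *Tgfbi*, a secreted matrix protein named for its induction by TGF-β (chromosome 13, 56609523 to 56639562, plus strand), had means of 105, 337 and 1170. It was 3.21-fold higher at BDL day 3 (log2 1.68 ± 0.48), 11.1-fold higher at BDL day 14 (log2 3.48 ± 0.45) and 3.47-fold higher between the BDL groups (log2 1.80 ± 0.45). Its highest library, of 1890, belonged to BDL day 14 and made up 40.4% of that group, and without it the log2 ratio at BDL day 14 was 3.15. *Tgfbi* and *Gdf3* were thus higher at each later time, as the summed recruited macrophage markers were. Of those 7 markers, 4 were higher past 1.5-fold at BDL day 3 and 1 lower. The lower one, *Ly6c2*, had means of 21.9, 8.19 and 6.69, and *Ccr2* and *Cx3cr1* were within 1.5-fold at BDL day 3. The part of these cells was not tested.

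The Id genes, helix-loop-helix inhibitors that BMP-activated Smads induce, were within 1.5-fold of day 0 at BDL day 3, and *Id1* and *Id3* were lower at BDL day 14. Under quantile normalization, the log2 ratios at BDL day 3 were -0.635 for *Id1*, past 1.5-fold, -0.579 for *Id3* and -0.447 for *Id2*. *Id3* had means of 287, 275 and 101, a log2 ratio of -0.06 ± 0.31 at BDL day 3 and a 2.84-fold lower mean at BDL day 14 (log2 -1.51 ± 0.29). *Id1* had means of 103, 77.4 and 37.0 and was 2.78-fold lower at BDL day 14 (log2 -1.48 ± 0.43). Every day 0 library of *Id1* held at least 42.1, above the mean of BDL day 14. *Id2*, which many other signals also induce, had means of 215, 205 and 152, within 1.5-fold (log2 -0.50 ± 0.35 at BDL day 14). The Kupffer cell markers, of which 5 of 5 were lower past 1.5-fold at BDL day 14 than at day 0, were low alongside *Id1*, *Id3* and *Acvrl1*. At BDL day 3, 4 of 5 were higher past 1.5-fold, whereas *Id1* and *Id3* were within it. Hepatocyte markers (10 of 10) and mesenchymal markers (15 of 15) were also lower past 1.5-fold at BDL day 14. The part of these cells was not tested.

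**Figure D4:**
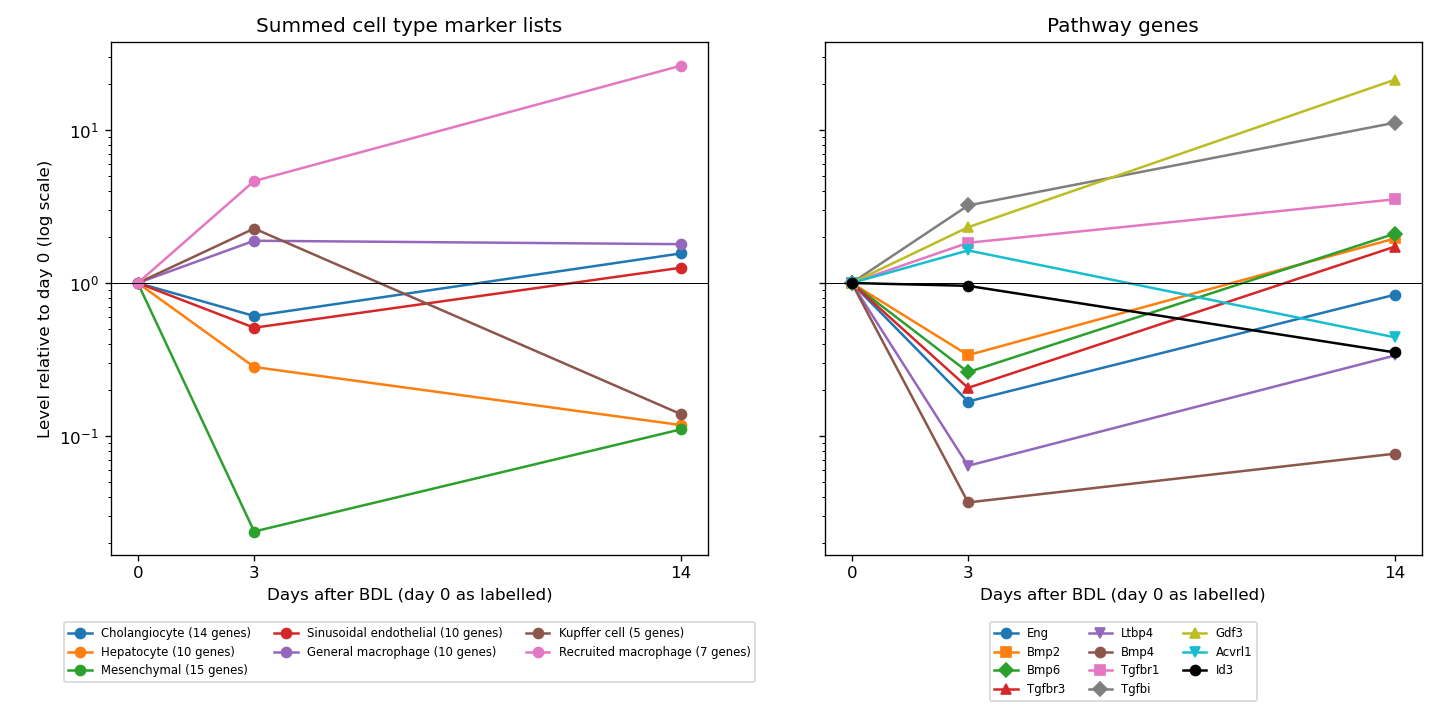
Levels relative to day 0 (log axis) at days 0, 3 and 14 for the summed cell type marker lists (left) and for 11 of the members (right), from the authors' means. *Eng*, *Bmp2*, *Bmp6* and *Tgfbr3* are lowest at BDL day 3, as the sinusoidal endothelial sum is (1280, 653 and 1610). The mesenchymal (1690, 40.2 and 187) and cholangiocyte sums (705, 429 and 1100) are also lowest then, and the part of these cells was not tested. The BDL day 3 point of *Bmp4* lies at the floor.

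Among lists of genes around the pathway, the extracellular traps and proteoglycans were lower at BDL day 3. Of the ligand traps and antagonists, 6 were kept and 6 of 6 were lower past 1.5-fold at BDL day 3, with a median log2 ratio of -2.98, and 5 of 6 at BDL day 14, with a median of -1.43. Among all genes kept, 29.2% were lower past 1.5-fold at BDL day 3 and 28.8% at BDL day 14. *Fstl1*, a secreted follistatin-like glycoprotein, had means of 50.8, 3.26 and 16.8, and its day 0 and BDL day 3 libraries cannot overlap. *Twsg1*, a BMP-binding protein, had means of 20.6, 5.43 and 11.1 (log2 -1.92 ± 0.57 at BDL day 3). *Chrd*, *Grem1* and *Fst*, classical BMP and activin antagonists, lay at the floor in both BDL groups. The 5 small leucine-rich proteoglycans, some of which bind TGF-β, summed to 416, 20.8 and 86.2, and 5 of 5 were lower past 1.5-fold at both times. *Dcn*, decorin, with means of 177, 6.35 and 21.6, had day 0 libraries that overlapped neither BDL group, and *Lum* and *Bgn* were lower as well (means at BDL day 3 of 0.0729, at the floor, and 14.1, against 32.1 and 189 at day 0). *Dcn* and *Lum* are also among the mesenchymal markers.

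Genes that free or process latent TGF-β split. Of the 10 kept, 5 were lower past 1.5-fold at BDL day 3 and 0 higher, and at BDL day 14 these numbers were 5 and 1. In the same order of times, 29.2% and 28.8% of all genes kept were lower, and 19.2% and 21.2% were higher. *Lrrc32*, the cell-surface anchor GARP of latent TGF-β, had means of 32.5, 4.08 and 17.0 (log2 -2.99 ± 0.87 at BDL day 3). *Nrros*, the corresponding anchor of macrophages and microglia, had means of 86.8, 113 and 75.8, all within 1.5-fold. *Thbs1*, thrombospondin-1, an activator of latent TGF-β, was the gene higher at BDL day 14, with means of 10.7, 14.4 and 89.3 (log2 3.06 ± 0.71). The integrin genes *Itgav* (30.5, 36.9 and 38.3) and *Itgb5* (226, 307 and 273) and the protease gene *Furin* (34.4, 47.6 and 48.2) stayed within 1.5-fold. The scarcer integrin gene *Itgb8* (2.49, 0.396 and 0.399) was lower past 1.5-fold at both times than at day 0. So were the protease genes *Bmp1* (8.74, 1.73 and 3.57) and *Pcsk6* (5.49, 0.704 and 0.340). Ligands other than the members and their receptors were scarce, with 5 of 8 and 3 of 7 listed genes kept.

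Inside the cell, the 19 Smad regulators and cofactors had median log2 ratios of -0.02 and -0.03 at BDL day 3 and day 14. The medians of all genes kept were -0.02 and -0.04. Past 1.5-fold, 2 were higher and 5 lower at BDL day 3, and 4 higher and 4 lower at BDL day 14. *Usp15*, a deubiquitinase of Smads and the type I receptor, had means of 41.9, 23.6 and 29.8 (log2 -0.83 ± 0.15 at BDL day 3). *Fkbp1a*, which holds the type I receptor inactive, had means of 70.5, 72.0 and 130 (log2 0.88 ± 0.46 at BDL day 14). *Strap*, a binder of the receptor and Smad7, had means of 38.5, 51.4 and 59.2 (log2 0.62 ± 0.16 at BDL day 14), whereas *Zfyve16*, an endosomal Smad adaptor, had 15.2, 9.86 and 9.83 (log2 -0.63 ± 0.26).

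Known TGF-β targets outside the members were mostly lower at BDL day 3. Of the 17 kept, 13 were lower past 1.5-fold at BDL day 3 and 3 higher, against 29.2% and 19.2% of all genes kept. The median log2 ratio was -2.11. At BDL day 14, 8 were lower and 5 higher, against 28.8% and 21.2%, with a median of -0.57. Between the BDL groups, 11 were higher and 2 lower, against 21.2% and 19.7%. *Col1a1*, *Col1a2*, *Acta2* and *Tagln*, lower past 1.5-fold at both times than at day 0, are also in the mesenchymal list. *Pmepa1*, an inhibitor of TGF-β receptor signalling, was the 1 target higher past 2 SE at BDL day 14, with means of 3.91, 1.45 and 15.4 (log2 1.98 ± 0.94). *Pmepa1* is also counted among the Smad regulators above. *Fn1*, fibronectin, had means of 137, 62.3 and 356 (log2 1.38 ± 0.73 at BDL day 14) and *Ccn2*, connective tissue growth factor, 31.1, 7.21 and 62.5 (log2 1.01 ± 0.99), both within 2 SE of day 0. *Bhlhe40*, a transcriptional repressor, had 24.1, 48.0 and 38.5. At BDL day 14, 5 targets were lower past 1.5-fold and 2 SE, led by *Acta2*, *Col1a2* and *Tagln*, which are mesenchymal markers too. *Ccn1* and *Junb*, outside the mesenchymal list, were also among them. *Ccn1* had means of 33.9, 19.8 and 4.12 (log2 -3.04 ± 0.45), and *Junb* of 334, 194 and 157 (log2 -1.09 ± 0.45). Of the 7 BMP target genes, which include the members *Smad6* and *Smad7*, 3 were lower past 1.5-fold at BDL day 14 and 2 higher, with a median log2 ratio of -0.44. The shares of all genes kept were 28.8% lower and 21.2% higher.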

How the data were processed

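mRNA of FACS-sorted GFP(+) cells was sequenced. In Partek Flow, the authors aligned trimmed reads with STAR (2.6.1d in the submitters' processing notes) to the mm10 build, quantified GENCODE genes (the paper names another STAR version) and applied upper quartile normalization. The deposited signal values are the authors' least squares means of the normalized counts for each group. The other deposited columns used hold the arithmetic and geometric means over 10 libraries and the highest library's normalized count. For each of the 3 comparisons, 7 columns of the authors' p-values, FDR, ratios, fold changes and limits were not used. No column (0) gives a single library, so raw counts and depth were not analysed here. The labels describe 6 libraries at BDL day 14, of which 4 stand behind the mean, and which were left out is not named.

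The members and lists were chosen with earlier results of these data known. Genes were kept at a summed normalized count of at least 10. *Bmp4*, *Ltbp1*, *Ltbp2* and *Tgfb2* would not have reached it without day 0, nor *Gdf3* without BDL day 14. The weighted group means matched the overall mean to within 0.469% for 99% of genes, so they were taken as arithmetic means. The pooled SD of log2 values was solved from the group means and the geometric mean, taking log-normal values with 1 spread in the 3 groups, and the SE of a log2 ratio is this SD times the root of the summed inverse library numbers. This measure was chosen after the columns were seen, and it rests on few libraries. Counts of members past a fold use the listed means. The lowest library of a group was bounded from its mean, its number of libraries and the highest count, with a margin of 0.5% for rounding. The highest library was placed in a group where no other group's sum could hold it. On data simulated for 12889 genes, the SD recovered a median of 0.994 of the true one. Those data were drawn log-normal with 1 spread, as the SD assumes. They cannot show how the SD behaves where the spread differs between groups or near the floor. In them 0 genes were wrongly held apart, which the arithmetic of the bounds fixes in advance. Coordinates are those of the table, with the end made inclusive. They equalled those of GENCODE M21 for 16920 of 16950 shared symbols. Members past 1.5-fold are named one by one, and of each list up to 3 genes with the largest ratios in each direction and a mean of at least 10. *Chrd*, *Grem1*, *Fst*, *Cdh5*, *Pmepa1*, *Junb*, *Itgb8*, *Bmp1* and *Pcsk6* were named after their values were seen. Python 3.11.15, pandas 2.3.3, numpy 2.4.6 and matplotlib 3.10.9 were used. The alternatives tried lifted the filter, asked for a mean of at least 10, or used a 2-fold threshold, median-ratio scaling, quantile normalization, pseudocounts of 1 and 0.1, and leaving out the highest library of a gene.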

Additional observations from a re-analysis of the deposited data

How the results depend on the processing

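With a mean of at least 10, counts of members past 1.5-fold were 5 lower at BDL day 3, 6 higher and 6 lower at BDL day 14 against day 0, and 8 higher and 4 lower at BDL day 14 against BDL day 3, since fewer members were kept, and 0 members were held apart by the bounds at either time, as *Bmp4* was not kept. At a 2-fold threshold, 2 members were higher at BDL day 3 and 6 at BDL day 14 against day 0. Without the highest library, *Tgfb2* at BDL day 14 against day 0 had a log2 ratio of 0.268. The other 84 values of the member counts and medians stayed within set margins, 1.5 times for a count and a shift of under 1.5-fold for a median. The spread did not enter these margins. For the medians they are wide beside the -0.09 and -0.05 of the members against day 0. Quantile normalization moved the median log2 ratio of all genes from -0.02 to 0.12 at BDL day 3 and from -0.04 to 0.0987 at BDL day 14, and the share of lower among all genes past 1.5-fold from 60.3% to 44.2% and from 57.6% to 45.3%. Among the members these shares were 70.6% and 68.4%, and 56.5% and 52.2%.

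*Bmp4* counted as higher at BDL day 14 than at BDL day 3 on its listed means, and its bound of at least 1.40-fold did not pass 1.5-fold. Over the member ratios in the 3 comparisons, quantile normalization ended 6 calls past 1.5-fold and began 7, median-ratio scaling ended 1 and began 1, and a pseudocount of 1 ended 4. Leaving out each library in turn was not run, since the table holds no values per library. No paired analysis was possible because the columns carry no replicate numbers. Sex, cell composition and library depth could not be entered in a fit, and means near the floor rest on a few reads.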
